A study of Mus musculus with 10 samples.

Results

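The 10 genes described here are those of the Notch pathway that code for its receptors (*Notch1*, *Notch2*, *Notch3* and *Notch4*), its ligands (*Dll1*, *Dll4*, *Jag1* and *Jag2*) and its direct target genes (*Hes1* and *Hey1*). They were taken by symbol from the 55401 gene rows of the count tables, and all 10 were found. The tumors came from B16F10 (B16) cells, a mouse melanoma line, grown under the skin of the flank in female C57BL/6J mice that the methods give as 9 to 12 weeks old. In 5 tumors the injected cells were *Mir25* knockout (KO) cells made with CRISPR-Cas9, and in 5 they were non-targeting control (NTC) cells. Every mouse, KO or NTC, received the GVAX vaccine (irradiated B16 cells that secrete GM-CSF) on days 1 and 4 and anti-PD-1 antibody at 10 mg/kg on days 6, 9 and 12, and tumors were taken on day 15. The cells of the host mouse were not edited, so vessels, fibroblasts and leukocytes in a KO tumor are of the same origin as in an NTC tumor. The sample labels do not say which guide was used or whether the KO cells were a bulk population or 1 clone. The comparison asks whether Notch pathway transcripts differ between treated tumors grown from *Mir25* KO cells and from NTC cells.

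Notch receptors are single-pass membrane proteins that are activated by ligands on a neighbouring cell. Binding of a Delta-like or Jagged ligand exposes the receptor to cleavage by ADAM proteases and then by gamma-secretase, and the freed intracellular domain moves to the nucleus, where it joins RBPJ and a Mastermind protein and turns on target genes such as *Hes1* and *Hey1*, which code for repressors of transcription. Notch1 and Notch4 with Dll4 are known from endothelial cells of growing vessels, Notch3 from the mural cells that wrap vessels, Notch2 from B cells, myeloid cells and melanocytes, and Notch1 also from T cells.

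The knockout is directed at a miRNA, so the sequence of that miRNA and the only match to its seed in these genes are shown first. The mature miR-25-3p is encoded on the minus strand at chr5:138165332-138165353 of GRCm38.p6 (RefSeq). The capitals mark the seed, bases 2 to 8, which miR-32-5p, miR-92a-3p, miR-92b-3p, miR-363-3p and miR-367-3p share. The study designed 3 guides against the hairpin, whose 84 bases lie at chr5:138165321-138165404. In the guides below, capitals mark the bases that encode the seed or their complement.

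mmu-miR-25-3p: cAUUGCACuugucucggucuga

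mmu-miR-25-sg1: tgttgagaggcggagactt

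mmu-miR-25-sg2: cctgggcATTGCACttgtct

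mmu-miR-25-sg3: ccgagacaaGTGCAATgcc

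Guide sg1 matched bases 7 to 25 of the hairpin and lay outside the mature miR-25-3p, whereas sg2 (bases 46 to 65) and sg3 (bases 50 to 68, opposite strand) covered the seed. No read was counted on *Mir25* in any of the 10 libraries, so the knockout itself cannot be checked in these counts. *Mcm7*, the DNA replication gene that hosts *Mir25* in an intron, was at 103 ± 31.0 CPM in KO tumors and 113 ± 24.6 CPM in NTC tumors (SD, n = 5 each; CPM is the count per unit of sequencing depth, with library sizes scaled by TMM factors).

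In the 3′ UTRs of 1 transcript per gene (GENCODE M21, GRCm38), *Notch1* held the only match among the 10 genes. It is a 7mer-A1 match, in which bases 2 to 7 of the miRNA pair and an A follows (TGCAATA), at chr2:26457938-26457944 on the minus strand, starting at base 1587 of a 3′ UTR of 1628 bases. The match is in capitals within 29 bases of the transcript strand.

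Notch1 3′ UTR: gttaactaattTGCAATAaaaatgatact

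None of the 10 had the stronger 7mer-m8 match (GTGCAAT), alone or followed by an A. For comparison, 6.03% of 20928 genes with a 3′ UTR held the stronger match and 11.6% held either kind. A match is a description of the sequence and was not tested for function. In the promoter windows of RefSeq (250 bases before to 50 after the start, GRCm38.p6), 8 of the 10 genes had an entry, with 9 windows. The core that RBPJ binds (TGGGAA, either strand) was in none of those 9 windows and in 25.6% of 32851 mouse promoter windows of the same length. *Hes1* and *Hey1* were not among the entries.

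Sequencing depth was similar in all tumors but 1. The counts on genes were 23243707 to 27006075 in KO tumors (median 25568205) and 11896643 to 28682130 in NTC tumors (median 26604042). NTC replicate 1 stood apart. It had the lowest depth, at 11896643 counts, reads on 33193 genes where the other 9 libraries had reads on 22192 to 25435, and 53.9% of reads outside annotated genes against 20.6% to 32.8%. It also had the highest fibroblast, mural cell and endothelial marker levels of all 10 tumors in CPM. Its TMM factor was 0.628, where those of the other 9 were 0.968 to 1.11. A lower factor raises every CPM value of a library, so the ranks of this tumor in CPM rest partly on it. The fold changes of the members and the counts of genes are therefore given with and without this tumor. On the 16205 autosomal genes without a read in the other libraries it held 0.956 reads per kilobase of exon. At that rate 3.12 of the 16 *Hey1* reads, 4.03 of the 14 *Dll1* reads and 3.68 of the 9 *Dll4* reads of this library would be of that kind, against 5.57 of 401 for *Jag1* and 10.3 of 1203 for *Notch2*.

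**Figure D1:**
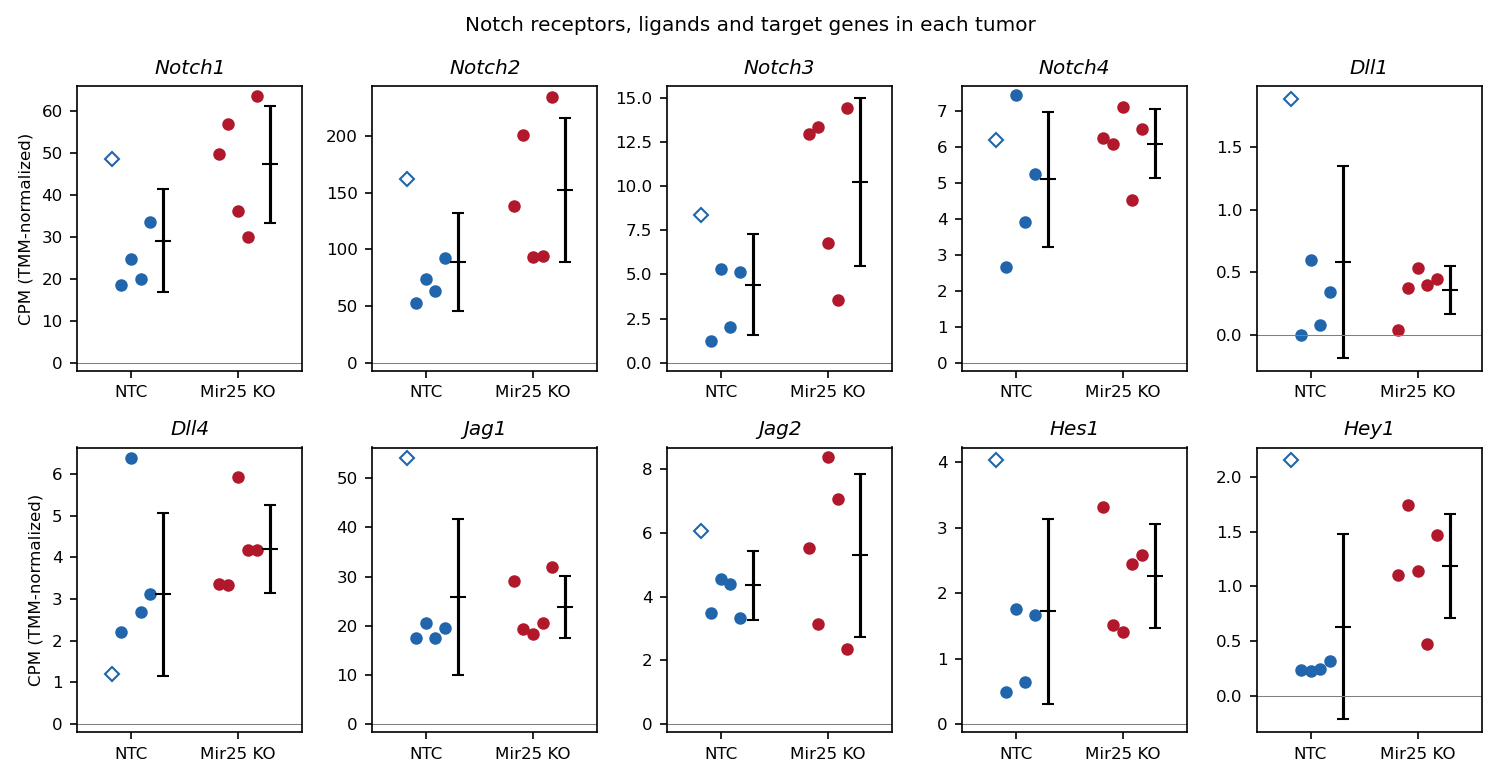
Normalized level (CPM, vertical axis from 0) of each of the 10 genes in each tumor, with NTC tumors in blue, Mir25 KO tumors in red and NTC replicate 1 as the open diamond. Black bars give the mean and SD of each group (n = 5). *Jag1* and *Hey1* were highest in NTC replicate 1, and the 4 other NTC tumors were lower than every KO tumor for *Notch2* and *Hey1*.

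All 10 genes passed the filter on low counts, and none passed the test over all tumors (edgeR's quasi-likelihood test, log2 fold change beyond 1 and Benjamini-Hochberg adjusted p under 0.05 over 15821 genes). Few genes passed it at all: 1 was higher in KO tumors (0.00632%) and 2 were lower (0.0126%). Before adjustment, *Notch1* and *Notch3* were the 2 members higher in KO at p under 0.05, against 3.99% of all genes, and no member was lower, against 4.85%. In the same fit the log2 fold change was above 0 for 8 of the 10 members and for 51.3% of all genes, and its median was 0.43 over the members and 0.01 over all genes. Without NTC replicate 1 again no member passed, where 0.0124% of genes were called higher and 0.0933% lower, while 4 of 10 (*Notch1*, *Notch2*, *Notch3* and *Hey1*) were higher before adjustment, against 12% of 16078 genes, and none was lower, against 8.1%. *Hey1* passed the filter on low counts through the KO tumors, where it is high, and adds nothing to that count. The log2 fold change was then above 0 for 10 of 10 members and 48.1% of all genes, with medians of 0.69 and -0.02. DESeq2 without NTC replicate 1 and without a filter called *Notch2*, *Notch3* and *Hey1* higher, where it called 3.32% of the 18601 genes with an adjusted p higher in KO and 0.731% lower. These are bulk tumors, so more cells of a type and more RNA of a gene per cell cannot be told apart.

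The receptors *Notch1*, *Notch2* and *Notch3* were higher on average in KO tumors, and *Notch4* differed little. *Notch1* (chr2:26457903-26516663, minus strand, GRCm38) was at 49.6, 56.8, 36.1, 29.9 and 63.5 CPM in KO replicates 1 to 5 and at 48.5, 18.5, 24.7, 20.0 and 33.6 CPM in NTC replicates 1 to 5. KO replicates 1, 2 and 5 were above every NTC tumor, and KO replicates 3 and 4 lay within the NTC range. The log2 fold change was 0.71 (SE 0.29, unadjusted p = 0.0360, adjusted p = 0.514 by edgeR), and 0.93 without NTC replicate 1 (SE 0.24, unadjusted p = 0.00314, adjusted p = 0.142 by edgeR). DESeq2 without that tumor gave 0.95 with an adjusted p of 0.0162, short of the fold threshold.

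*Notch2* (chr3:98013527-98150361, plus strand) was the most abundant receptor, with 138, 201, 92.9, 94.3 and 234 CPM in the KO tumors and 162, 52.5, 74.0, 63.5 and 92.5 CPM in the NTC tumors. Every KO tumor was above NTC replicates 2 to 5, the closest pair being 92.9 and 92.5 CPM, and NTC replicate 1 was above 3 KO tumors. All KO tumors above NTC replicates 2 to 5 was seen for 2 of the 10 members (*Notch2* and *Hey1*) and for 2.71% of all genes, and the reverse for no member and 3.59%, with the same limit for *Hey1*. All KO above all 5 NTC tumors was seen for no member and for 0.866% of genes, and the reverse for no member and 1.47%. *Notch2* had a log2 fold change of 0.78 (SE 0.35, unadjusted p = 0.0512, adjusted p = 0.567 by edgeR) and 1.07 without NTC replicate 1 (SE 0.29, unadjusted p = 0.00420, adjusted p = 0.146 by edgeR). DESeq2 without that tumor gave 1.10 with an adjusted p of 0.0179.

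*Notch3* (chr17:32120820-32166852, minus strand) had the largest log2 fold change among the receptors, although *Notch2* differed more in CPM. It was at 13.0, 13.4, 6.80, 3.57 and 14.4 CPM in the KO tumors and at 8.35, 1.25, 5.30, 1.99 and 5.13 CPM in the NTC tumors. KO replicates 1, 2 and 5 were again above all NTC tumors, and KO replicate 4 lay below 3 of them. Its log2 fold change was 1.24 (SE 0.53, unadjusted p = 0.0414, adjusted p = 0.531 by edgeR), and 1.54 without NTC replicate 1 (SE 0.52, unadjusted p = 0.0137, adjusted p = 0.183 by edgeR). DESeq2 without that tumor gave 1.57 with an adjusted p of 0.0331.

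*Notch4* (chr17:34564268-34588503, plus strand), the receptor most restricted to endothelium, was at 6.23, 6.08, 7.11, 4.51 and 6.49 CPM in the KO tumors and at 6.20, 2.66, 7.45, 3.90 and 5.24 CPM in the NTC tumors. The groups overlapped almost fully, and the log2 fold change was 0.26 (95% interval -0.34 to 0.86, adjusted p = 0.803 by edgeR) and 0.31 without NTC replicate 1. Leaving out other tumors moved it between 0.096 (without NTC replicate 2) and 0.45 (without NTC replicate 3).

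Set against one another, *Notch1* and *Notch2* kept nearly the same proportions in every tumor relative to the size of their shares, while the smaller shares of *Notch3* and *Notch4* varied several-fold. Per kilobase of transcript, *Notch2* made up 60.7% to 70.2% of the reads on the 4 receptors and *Notch1* 21.0% to 26.1% over the 10 tumors. Shares of *Notch3* ran from 2.07% to 7.73% and of *Notch4* from 3.10% to 9.87%. By group, *Notch2* held 66.1% ± 4.15 in KO and 65.6% ± 2.79 in NTC tumors, *Notch3* held 5.71% ± 1.56 and 3.98% ± 1.52, and *Notch4* held 4.70% ± 1.73 and 6.35% ± 2.15 (SD, n = 5 each). These differences were below the spread between tumors for *Notch2* and of about its size for *Notch3* and *Notch4*.

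**Figure D2:**
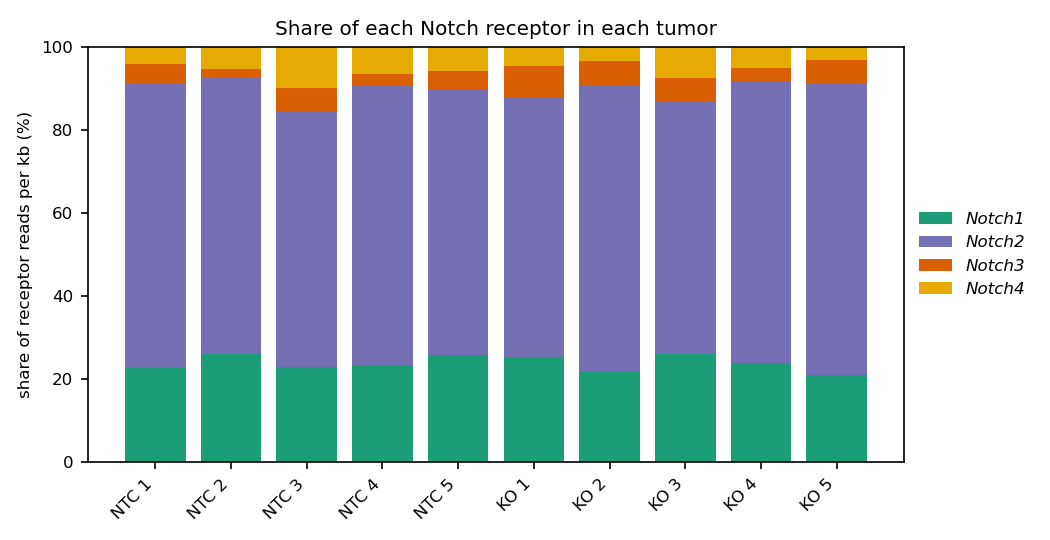
Share of each receptor (percent of the summed reads per kilobase of transcript on *Notch1* to *Notch4*, vertical axis) in each of the 5 NTC and 5 KO tumors (horizontal axis). *Notch2* held 60.7% to 70.2% in every tumor of either group.

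The ligands showed no difference that passed the test, and their intervals were wide. *Jag1* (chr2:137081456-137116644, minus strand), the most abundant ligand, was at 29.0, 19.3, 18.4, 20.5 and 32.0 CPM in the KO tumors and at 54.0, 17.4, 20.5, 17.5 and 19.5 CPM in the NTC tumors. Apart from NTC replicate 1 the NTC tumors were within 17.4 to 20.5 CPM, and KO replicates 1 and 5 were above them, with KO replicate 4 level with the highest of them. The direction followed that tumor: the log2 fold change was -0.10 over all tumors (95% interval -0.84 to 0.64, adjusted p = 0.947 by edgeR) and 0.31 without it (adjusted p = 0.343 by edgeR).

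*Jag2* (chr12:112907819-112929776, minus strand) was at 5.54, 3.15, 8.39, 7.07 and 2.36 CPM in the KO tumors and at 6.06, 3.48, 4.54, 4.39 and 3.33 CPM in the NTC tumors. Its order among KO tumors was the opposite of that of *Notch2*: KO replicates 3 and 4, the lowest for *Notch2*, were the highest for *Jag2*, and KO replicates 2 and 5 the lowest. For *Jag2* the log2 fold change was 0.29 (95% interval -0.48 to 1.06, adjusted p = 0.832 by edgeR) and 0.41 without NTC replicate 1. It was 0.064 without KO replicate 3 and 0.48 without KO replicate 5.

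*Dll4* (chr2:119325784-119335962, plus strand), the ligand of endothelial tip cells, was at 3.36, 3.34, 5.93, 4.18 and 4.18 CPM in the KO tumors and at 1.21, 2.20, 6.37, 2.68 and 3.12 CPM in the NTC tumors. The 5 KO tumors were above 4 of the 5 NTC tumors, and NTC replicate 3 was above them all. For *Dll4* the log2 fold change was 0.41 (95% interval -0.44 to 1.26, adjusted p = 0.776 by edgeR) and 0.20 without NTC replicate 1, the lowest tumor. Without NTC replicate 3, the highest, it was 0.84 (unadjusted p = 0.0225, adjusted p = 0.581 by edgeR).

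*Dll1* (chr17:15367354-15376872, minus strand) was barely detected, with 0 to 19 reads per tumor. It was at 0.0410, 0.380, 0.539, 0.397 and 0.445 CPM in the KO tumors and at 1.89, 0, 0.599, 0.0813 and 0.347 CPM in the NTC tumors. The 0 in NTC replicate 2 allows up to 0.0985 CPM (3 reads, counting error only). The log2 fold change changed sign with NTC replicate 1, from -0.44 over all tumors (95% interval -2.64 to 1.76, adjusted p = 0.917 by edgeR) to 0.45 without it, so no difference was detectable at this depth. A long noncoding gene on the other strand, *A930024N18Rik*, overlaps 20.6% of its exon bases, and with the strand setting of the counting unknown the reads of the pair may not be separated.

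The target genes were low in all tumors. *Hes1* (chr16:30064384-30067796, plus strand), with 15 to 81 reads per tumor, was at 3.32, 1.52, 1.41, 2.45 and 2.58 CPM in the KO tumors and at 4.04, 0.492, 1.77, 0.651 and 1.67 CPM in the NTC tumors. In CPM, NTC replicate 1 was the highest of all, a rank that rests partly on its low TMM factor, and NTC replicates 2 and 4 were the lowest. For *Hes1* the log2 fold change was 0.45 (95% interval -0.73 to 1.63, adjusted p = 0.832 by edgeR) and 0.94 without NTC replicate 1 (SE 0.44, unadjusted p = 0.0576, adjusted p = 0.263 by edgeR). It was 0.20 without NTC replicate 2, 0.24 without NTC replicate 4 and 0.26 without KO replicate 1.

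*Hey1* (chr3:8663359-8667256, minus strand) showed the widest separation of the members once NTC replicate 1 was set aside. It was at 1.11, 1.75, 1.15, 0.469 and 1.47 CPM in the KO tumors and at 2.16, 0.230, 0.221, 0.244 and 0.312 CPM in the NTC tumors, from 6 to 46 reads per tumor. The 4 NTC replicates 2 to 5 lay in a narrow range below all KO tumors. In CPM, NTC replicate 1 lay above all KO tumors, a rank that rests partly on its low TMM factor. *Hey1* passed the filter on low counts through the KO tumors (13 to 46 reads), since NTC replicates 2 to 5 held only 6 to 9 reads each, so the filter itself favoured a difference in this direction. Over the 10 tumors the log2 fold change was 1.16 (95% interval -0.40 to 2.71, unadjusted p = 0.129, adjusted p = 0.661 by edgeR). Without NTC replicate 1 it was 2.18 (SE 0.40, unadjusted p = 0.000311, adjusted p = 0.0751 by edgeR), and DESeq2 gave 2.23 with an adjusted p of 0.000696. Among the fits that were run, *Hey1* was called only by DESeq2 and only without NTC replicate 1.

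**Figure D3:**
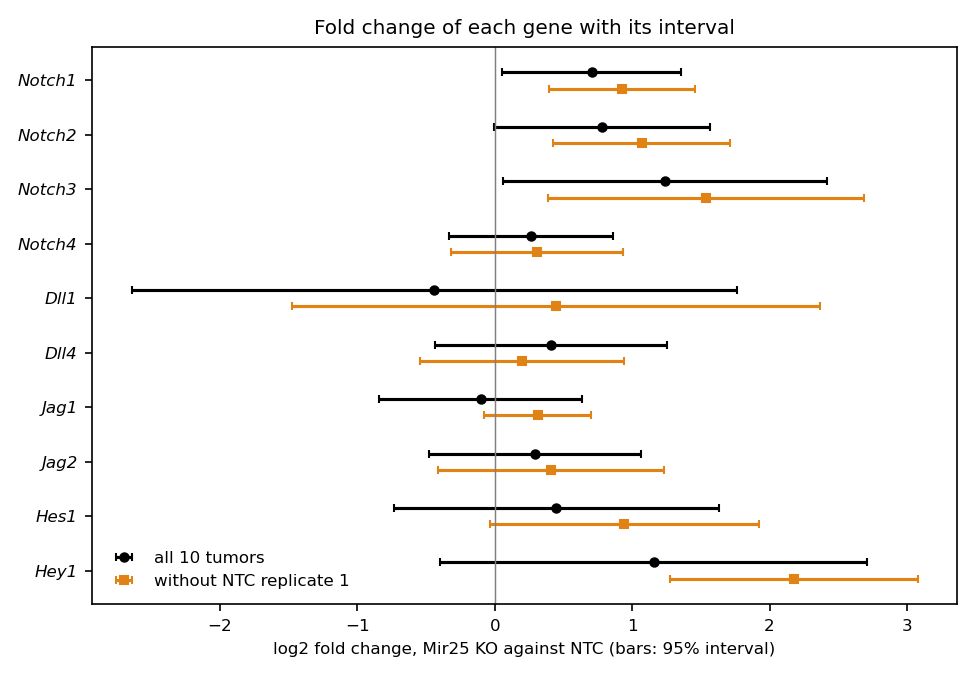
Log2 fold change of each gene in Mir25 KO against NTC tumors (horizontal axis, edgeR) with its 95% interval, over all 10 tumors (black circles) and without NTC replicate 1 (orange squares). *Hey1* moved from 1.16 to 2.18, and *Jag1* and *Dll1* changed sign.

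The levels of different genes were compared as CPM per kilobase of transcript. The order of medians over the 10 tumors was *Notch2* (8.92), *Notch1* (3.67), *Jag1* (3.56), *Hes1* (1.17), *Notch4* (0.931), *Dll4* (0.895), *Jag2* (0.875), *Notch3* (0.755), *Hey1* (0.325) and *Dll1* (0.108). The ranges of neighbours in this order overlapped over tumors for every pair except *Jag1* and *Hes1*. Within a tumor, *Notch2* was above *Notch1* in 10 of 10 tumors, but *Notch1* was above *Jag1* in 5 and *Notch4* above *Dll4* in 3, so these neighbours had no fixed order.

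The other genes of the pathway, 47 in a list of ligands, modifying enzymes, proteases, nuclear factors and regulators, differed little in the median but leaned upward in number. Of these, 41 passed the filter on low counts and 0 were called by edgeR in either direction, while 2 had an unadjusted p under 0.05 and both were higher in KO, where 3.99% of all genes were higher at that p and 4.85% lower. Their median log2 fold change was 0.13, against 0.01 for all genes, and it was above 0 for 33 of 41, against 51.3% of all genes. Without NTC replicate 1 the numbers were 0 called and 7 higher at an unadjusted p under 0.05 (12% of all genes), none lower (8.1% of all genes), with a median of 0.12 against -0.02 for all genes and 28 of 41 above 0 against 48.1%. Those not tested were *Dll3*, *Dlk1*, *Neurl1a*, *Dtx1*, *Hes5* and *Hes7*.

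*Nrarp*, a Notch target whose product limits Notch signaling, was at 2.23 ± 0.65 CPM in KO and 1.14 ± 0.45 CPM in NTC tumors (SD, n = 5 each). All 5 KO tumors, at 1.48 to 3.23 CPM, were above the NTC median of 1.21, and the NTC tumors reached 1.61. The log2 fold change was 0.99 (SE 0.35, unadjusted p = 0.0162, adjusted p = 0.418 by edgeR) and 1.06 without NTC replicate 1, so unlike for *Hey1* that tumor made little difference. *Mib2*, a ubiquitin ligase that acts on ligands in the sending cell, was at 27.5 ± 3.41 CPM in KO and 21.9 ± 1.82 CPM in NTC tumors (log2 fold change 0.33, SE 0.11, unadjusted p = 0.0119, adjusted p = 0.383 by edgeR).

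By role, the 9 protease genes (*Adam10*, *Adam17* and the gamma-secretase subunits) had log2 fold changes from -0.10 to 0.24. The 6 genes of the nuclear complex (*Rbpj*, the Mastermind genes and the acetyltransferases *Ep300* and *Crebbp*) ran from -0.14 to 0.52, and the 6 corepressors from -0.07 to 0.26. The 6 genes of receptor glycosylation and maturation ran from -0.02 to 0.90, the highest being *Lfng*, named here after its values were seen, which codes for a sugar transferase that changes ligand preference (unadjusted p = 0.190, and 1.36 with an unadjusted p of 0.0482 without NTC replicate 1, by edgeR). The 10 tested ubiquitin ligases, endocytic genes and inhibitors ran from -0.0043 to 0.57. Below 0 were *Dlk2*, the only other ligand tested (-0.92, unadjusted p = 0.287 by edgeR), and *Hey2*, the lowest of the 3 other target genes tested (-0.61, unadjusted p = 0.302 by edgeR), both also named after their values were seen. *Neurl1b*, a ubiquitin ligase for ligands named here after its values were seen, was the only listed gene that DESeq2 called without NTC replicate 1 (log2 fold change 1.42, adjusted p = 0.0275). It was at 9.83 CPM in NTC replicate 1 and its log2 fold change over all tumors was 0.57 by edgeR.

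Cell types that are known to carry Notch genes varied widely between tumors. Marker scores (mean log2 CPM of a list of marker genes, prior count 2) were compared between groups over 8 lists by two-sided exact permutation tests, in which the smallest possible p is 0.00794. For leukocytes the score was 1.14 higher in KO (exact p = 0.222, adjusted 0.394), with summed levels of 1038 to 6310 CPM in KO and 348 to 5185 CPM in NTC tumors. The fibroblast score was 1.63 higher (exact p = 0.246, adjusted 0.394; 1086 to 6031 CPM and 63.0 to 6750 CPM). The mural cell score was 0.53 higher (exact p = 0.214, adjusted 0.394; 77.4 to 177 CPM and 34.7 to 273 CPM).

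For endothelial cells the difference was 0.39 (exact p = 0.373, adjusted 0.426; 153 to 219 CPM and 121 to 266 CPM). The melanoma cell score was 0.11 lower (exact p = 0.627, adjusted 0.627; 12227 to 20280 CPM and 11685 to 22262 CPM), and these high levels are those of the labelled tumor. Without NTC replicate 1, where the smallest possible exact p is 0.0159, the differences were larger for leukocytes (1.66, exact p = 0.0794), fibroblasts (2.42, exact p = 0.0476) and mural cells (0.83, exact p = 0.0397). Skeletal muscle markers were then 3.03 higher (exact p = 0.0476) and keratinocyte markers 1.68 higher (exact p = 0.0714). Each of these 5 lists had an adjusted p of 0.127. The endothelial difference was then 0.65 (exact p = 0.151, adjusted 0.151), the adipocyte difference 1.99 and the melanoma cell difference -0.28 (exact p = 0.111, adjusted 0.145). Over all tumors, skeletal muscle markers were 2.70 higher in KO (exact p = 0.0397, adjusted 0.317) and keratinocyte and adipocyte markers 1.35 and 1.26 higher (adjusted p = 0.394 and 0.426 by the exact test). Leaving out NTC replicate 2 lowered the differences, to 0.80 for fibroblasts, 0.28 for mural cells, 0.15 for endothelial cells and 0.82 for leukocytes, so single NTC tumors moved these scores in both directions. Single KO tumors also weighed on these scores: muscle markers summed to 205 CPM in KO replicate 4 and 39.2 CPM in KO replicate 3 and to 2.05 to 7.33 CPM in the other KO tumors, and keratinocyte markers to 42.0 CPM in KO replicate 3. The muscle difference was 1.71 without KO replicate 4, and the keratinocyte difference 0.72 without KO replicate 3. In none of the 8 lists was a marker at 0 in every tumor.

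Many members moved with these scores from tumor to tumor, as did many other genes. Of 50 relations between the 10 genes and 5 scores (endothelial, mural cell, fibroblast, leukocyte and melanoma cell), 35 had an adjusted p under 0.05 (permutation test of Pearson's r, 100000 resamples, 10 tumors). The number was 25 without NTC replicate 1, and 27 over the 10 tumors by the same test of Spearman's rho. The smallest absolute r among the 35 was 0.66, and over the 5 scores 38.4% of the relations of all 15821 tested genes were at least that close, against 70% of those of the members. Scores and genes are measured in the same libraries and the scores move with one another, so a relation to 1 score is not particular to it.

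*Notch1* and *Notch2* were closest to the leukocyte score, with which 3.26% and 3.11% of all genes had an r at least as high. For *Notch1* r was 0.96 and rho 0.89 (permutation p = 5e-05 and 0.00105, adjusted 0.00125 and 0.0131), and r was 0.96 without the 2 tumors farthest from the median score. For *Notch2* r was 0.97 and rho 0.87 (permutation p = 3e-05 and 0.00225, adjusted 0.00125 and 0.0187), and r was 0.95 without those 2 tumors. The relation was there within each group as well, with r of 0.98 in KO and 0.98 in NTC tumors for *Notch1* and of 0.99 and 0.96 for *Notch2* (5 tumors each, values only). By rho, *Notch2* was slightly closer to the mural cell score (rho = 0.88). Within KO tumors its r was 0.994 with the mural cell score and 0.992 with the leukocyte score.

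*Notch3* was about equally close to 4 scores. It followed the leukocyte score (r = 0.92, rho = 0.90, permutation p = 0.00027 and 0.00073, adjusted 0.00309 and 0.0131; r = 0.94 without the 2 farthest tumors), the fibroblast score (r = 0.93, rho = 0.90, permutation p = 0.00031 and 0.00078, adjusted 0.00309 and 0.0131; r = 0.75 without the 2 farthest tumors), the mural cell score (r = 0.89, rho = 0.90, permutation p = 0.00062 and 0.00084, adjusted 0.00309 and 0.0131; r = 0.90 without the 2 farthest) and the endothelial score (r = 0.88, rho = 0.85, permutation p = 0.00121 and 0.00289, adjusted 0.00504 and 0.0204; r = 0.59 without the 2 farthest). *Notch4* followed the endothelial score (r = 0.90, rho = 0.71, permutation p = 0.00054 and 0.0263, adjusted 0.00309 and 0.0488), and r was 0.67 without NTC replicates 2 and 4, the 2 farthest tumors.

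*Hes1* was closest to the fibroblast score (r = 0.92, rho = 0.81, permutation p = 0.00067 and 0.0071, adjusted 0.00309 and 0.0275; r = 0.68 without the 2 farthest). That relation was 0.99 within NTC and 0.38 within KO tumors, so it was carried mainly by the NTC tumors. By Pearson's r, *Hey1* was closest to the leukocyte score (r = 0.85, rho = 0.73, permutation p = 0.00358 and 0.0194, adjusted 0.00942 and 0.0412; r = 0.78 without the 2 farthest). By rho it was closest to the mural cell score (rho = 0.78), and within KO tumors its r was 0.95 with the endothelial and 0.77 with the leukocyte score.

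By Pearson's r over 10 tumors, *Jag1* was most closely, and negatively, related to the melanoma cell score (r = -0.91, rho = -0.81, permutation p = 0.00061 and 0.00715, adjusted 0.00309 and 0.0275; r = -0.68 without the 2 farthest). By rho the fibroblast score was slightly closer (rho = 0.82), and its r was 0.87 without the 2 tumors farthest in that score. *Dll1* followed the endothelial score (r = 0.80, rho = 0.76, permutation p = 0.00475 and 0.0148, adjusted 0.0108 and 0.0342; r = 0.57 without the 2 farthest), from few reads and with r of 0.98 within NTC and 0.24 within KO tumors. *Dll4* and *Jag2* passed with none of the 5 scores. For *Dll4* and the endothelial score r was 0.12 (rho = 0.15, permutation p = 0.749 and 0.683, adjusted 0.836 and 0.794), and 0.71 without NTC replicate 1, whose *Dll4* level was the lowest and whose endothelial score the highest. *Jag2* and the leukocyte score had r = -0.24 (rho = -0.33, permutation p = 0.497 and 0.349, adjusted 0.592 and 0.447), with -0.96 within KO and 0.59 within NTC tumors.

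**Figure D4:**
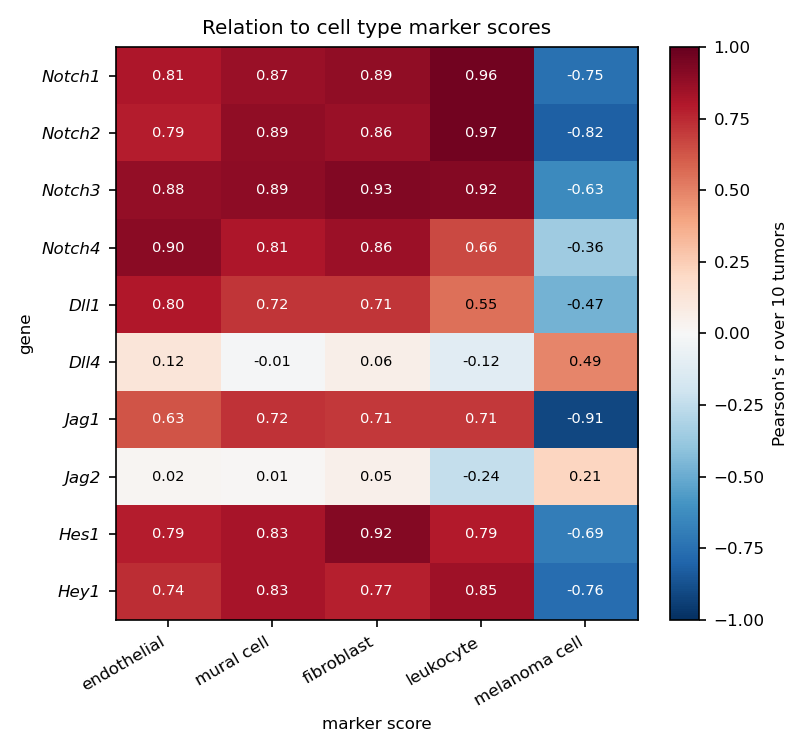
Pearson's r over 10 tumors between the log2 CPM of each gene (rows) and 5 cell type marker scores (columns), coloured from -1 (blue) to 1 (red). *Notch1* and *Notch2* had their highest values with the leukocyte score (0.96 and 0.97), and *Dll4* and *Jag2* were near 0 in most columns.

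**Figure D5:**
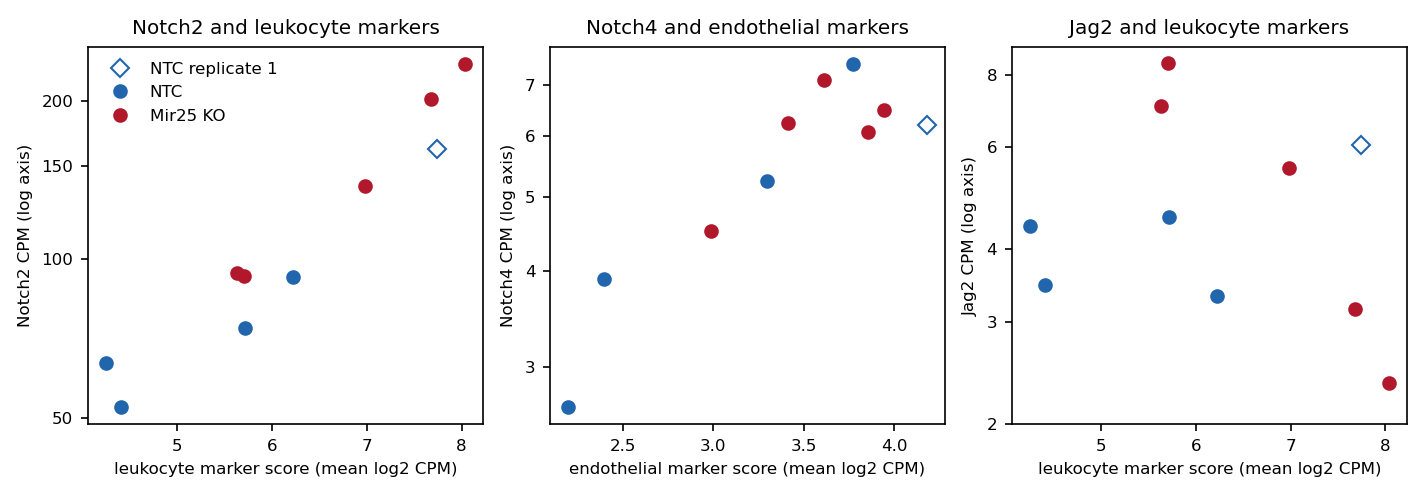
Level (CPM, log axis) of *Notch2*, *Notch4* and *Jag2* against a marker score (mean log2 CPM) in each tumor, with NTC in blue, Mir25 KO in red and NTC replicate 1 as the open diamond. *Notch2* was higher in tumors with higher leukocyte scores in both groups, and *Jag2* was lower in them among the KO tumors (r = -0.96) but not among the NTC tumors (r = 0.59).

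With the leukocyte score as a covariate in the edgeR fit, the log2 fold change went from 0.71 to 0.29 for *Notch1* (SE 0.09, unadjusted p = 0.00845, adjusted p = 0.195), from 0.78 to 0.25 for *Notch2* (SE 0.11, unadjusted p = 0.0413, adjusted p = 0.341), from 1.24 to 0.53 for *Notch3*, from 1.16 to 0.65 for *Hey1*, from 0.45 to 0.15 for *Hes1* and from 0.26 to 0.07 for *Notch4*. The ligands moved away from 0 in that fit, from 0.41 to 0.55 for *Dll4*, from 0.29 to 0.42 for *Jag2*, from -0.10 to -0.40 for *Jag1* (unadjusted p = 0.0765, adjusted p = 0.425 by edgeR) and from -0.44 to -0.65 for *Dll1*. With the endothelial score as the covariate it was 0.48 for *Notch1*, 0.51 for *Notch2*, 0.87 for *Notch3*, 0.08 for *Notch4*, 0.41 for *Hes1* and 0.81 for *Hey1*. For the ligands it was 0.31 for *Dll4*, 0.30 for *Jag2*, -0.24 for *Jag1* and -0.42 for *Dll1*. *Nrarp* went from 0.99 to 0.89 with the leukocyte score and to 0.80 with the endothelial score. Other named pathway genes moved more with the leukocyte score, from 0.90 to -0.05 for *Lfng* and from 0.57 to 0.0004 for *Neurl1b*. In that fit *Mib2* went from 0.33 to 0.23, *Dlk2* from -0.92 to -0.08 and *Hey2* from -0.61 to -0.10. The part of any cell type in these differences was not tested beyond these fits.

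Among the members themselves, *Notch1*, *Notch2* and *Notch3* varied together, with r between tumors of 0.98 (*Notch1* and *Notch2*), 0.95 (*Notch1* and *Notch3*) and 0.91 (*Notch2* and *Notch3*), given as a description over 10 tumors. *Hey1* was closest to *Notch1* (0.90), and *Hes1* to *Notch3* (0.77) and *Jag1* (0.77). Most unlike were *Dll4* and *Jag1* (-0.53), a value that was 0.19 without NTC replicate 1.

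Genes whose pattern over the 10 tumors was most like that of a member were found by Pearson's r among 13911 other genes with a mean of at least 1 CPM (13912 for *Dll1* and *Hey1*), as a description with no test. Closest to *Notch1* were *Ucp2* (0.99), a mitochondrial carrier, *Cebpa* (0.99), a transcription factor of myeloid cells, and *Blnk* (0.99), an adaptor of B cell receptor signaling. Closest to *Notch2* were *Myof*, *Pgap1* and *Bcl2l11* (all 0.99). For *Notch4* they were *Chga* (0.97), *Col4a2* (0.97), a basement membrane collagen, and *Tie1* (0.96), an endothelial receptor that is also on the endothelial marker list.

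For *Notch3* the closest were *9330159M07Rik*, *Asah2* and *Fmo1* (all 0.98), for *Hes1* *Mical2* (0.97), *Sema3d* (0.96) and *Creb3l1* (0.96), and for *Hey1* *Gstm1* (0.99), *Gm17655* (0.97) and *Socs2* (0.96), the last a suppressor of cytokine signaling. *Jag1* was closest to *Ptgs2* (0.98), the inducible prostaglandin synthase, *Thbs1* (0.97), a matrix glycoprotein, and *Ccr1* (0.97), a chemokine receptor of myeloid cells. The remaining ligands had lower values, with *Cbr2* (0.93) closest to *Dll1*, *Zfp235* (0.94) to *Dll4* and *Pcyox1l* (0.93) to *Jag2*.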

How the data were processed

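Bulk RNA-seq of 10 tumors was used, 5 *Mir25* KO and 5 NTC, grouped by the sample labels. The authors deposited read counts per gene symbol without normalization. The submitters' processing notes name FastQC, Trimmomatic, HISAT2, HTSeq and the build mm10. The annotation release and strand setting are not given in the sources used here. Reads outside annotated genes (20.6% to 53.9%) were left out of library sizes.

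Counts were tested with edgeR 4.0.16 (R 4.3.3) by its quasi-likelihood test with TMM factors and filterByExpr, over all 10 tumors, with DESeq2 1.42.0 as an alternative. A gene was called at a log2 fold change beyond 1 and an adjusted p under 0.05. CPM values used TMM library sizes, and logarithms a prior count of 2. On counts simulated for the 10-tumor comparison (15555 genes), edgeR recovered 196 of 200 genes changed by a fold of 8 and called 7 unchanged genes. The simulation held no outlying tumor and no smaller changes, so it does not measure how well changes of the size seen in the members would be found. The labels do not say whether replicates are separate mice, so p-values measure the spread between these samples, and floors cover counting error only. Scores, correlations and figures used Python 3.11.15 with numpy 2.4.6, pandas 2.3.3, scipy 1.17.1 and matplotlib 3.10.9.

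The 10 genes, the pathway list and the marker lists were chosen with earlier results of these data known. All 10 genes are described. Other pathway genes were named if called, or among up to 5 per direction with the smallest unadjusted p under 0.05, apart from those said to be named after their values were seen. For likeness the 3 highest Pearson r were taken. Positions are from GENCODE M21 (GRCm38), which may differ from the authors' annotation.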

Additional observations from a re-analysis of the deposited data

Results flagged for a closer look

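In 42 groups of 5 values checked for a sample far from the others, 6 were marked, all of them NTC replicate 1 in the NTC group; chance marks about 1 group in 20. *Jag1* was 54.0 CPM in that tumor, where the 4 others held 17.4 to 20.5 CPM, and *Hey1* was 2.16 CPM, where they held 0.221 to 0.312 CPM. The melanoma cell score of this tumor was 9.51 and those of the others 10.3 to 10.4. Keratinocyte markers scored -0.701 (others -2.53 to -2.21) and skeletal muscle markers -0.952 (others -2.79 to -2.31). It had 11896643 counts on genes, and the others had 24145795 to 28682130.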

How the results depend on the processing

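Alternatives were DESeq2, RLE size factors, other filters, robust dispersions, no fold threshold, score covariates, the replicate number as a block and leaving out each tumor. No member was called by edgeR under any of them. *Notch1*, *Notch2*, *Notch3*, *Notch4*, *Dll4*, *Jag2*, *Hes1* and *Hey1* stayed above 0 in every fit that tested them (*Dll1*, *Dll4* and *Hey1* fell out where 10 counts in every tumor were required), with adjusted p from 0.0162 to 0.863 for *Notch1*, 0.0179 to 0.899 for *Notch2*, 0.0331 to 0.863 for *Notch3* and 0.000696 to 0.942 for *Hey1*. *Dll1* and *Jag1* reversed in DESeq2 without a filter and NTC replicate 1 (0.48 and 0.33), in edgeR without that tumor (0.45 and 0.31) and with the block (0.27 and 0.0098); the cause was not tested. Leaving out each tumor in turn gave -0.82 to 0.45 for *Dll1* and -0.23 to 0.31 for *Jag1*, 0.20 to 0.84 for *Dll4*, 0.064 to 0.48 for *Jag2*, 0.096 to 0.45 for *Notch4* and 0.20 to 0.94 for *Hes1*. Whether replicate numbers pair the tumors is not settled (r from -0.287 to 0.633, above 0.1 in 3 of 5 pairs, and 2 KO tumors closest to their own number). With the block 1 gene was higher and 0 lower over all genes (1628 below an unadjusted p of 0.05, and 1400 in the main fit). Unadjusted p by edgeR with the block was 0.0128 for *Notch1*, 0.0422 for *Notch2*, 0.0280 for *Notch3* and 0.0522 for *Hey1*. It was higher than in the main fit for *Dll1*, *Jag1* and *Jag2*, and no member had an adjusted p below 0.362. Calls over all genes, higher and lower, were 24 and 72 by DESeq2 on the filtered genes, and 618 and 136 by DESeq2 with both the filter and NTC replicate 1 left out. They were 0 and 6 with at least 10 counts in every tumor (1248 below an unadjusted p of 0.05), 1 and 4 with robust dispersions, 4 and 8 with the leukocyte and 2 and 4 with the endothelial covariate. Without a fold threshold 4 were lower. Leaving out 1 tumor gave 1 to 2 higher and 0 to 15 lower, the highest counts being those without NTC replicate 1. Of the other pathway genes 1 was called, by DESeq2 without a filter and that tumor. Few reads limit *Dll1* and *Hey1*.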
